A study of Mus musculus with 5 samples.

Results

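Hmga1, Hmga2, Igf2bp1, Igf2bp2, Igf2bp3, Lin28a, Lin28b and Plag1 are genes of embryonic growth that are called oncofetal as a group. Most of them are silent or low in most adult tissues and return in many tumours, while Igf2bp2 also occurs in adult tissue. These 8 genes, chosen by name out of the 28001 features counted, were followed through sorted cells of a mouse model of epithelioid sarcoma. The cells were profiled by droplet-based single-cell RNA sequencing of transcript 3′ ends, in 5 libraries from C57BL/6J mice. All groups carried CreERT2, a tamoxifen-activated recombinase, at each copy of Hic1, a gene of mesenchymal progenitors, so they lacked an unmodified Hic1 allele, and cells were sorted for the red reporter tdTomato that Cre switches on. The muscle group was 1 library of mesenchymal progenitors from resting hindlimb muscle (Hic1CreERT2/CreERT2;Rosa26LSLtdTomato/+). The sarcoma group was 4 libraries of endpoint tumours (Hic1CreERT2/CreERT2;Rosa26LSLtdTomato/LSLtdTomato;Smarcb1FL/FL), in which Cre can also delete Smarcb1, which encodes a subunit of SWI/SNF chromatin remodellers. The tumours lay in the shoulder (sarcoma 1), the head (sarcoma 2), the head and ear (sarcoma 3) and the hip (sarcoma 4). Tamoxifen was given at 8 weeks of age, as 2.5 mg in 100 µL of sunflower oil a day for 5 days, with 10 days of washout. Muscle and sarcoma differed in genotype, in reporter copies, in site and in tumour state at once, and these cannot be told apart. No label states that the tumours grew in separate animals, so the spread behind each p-value is that between these libraries and may be technical.

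The products of these genes form a regulatory circuit. LIN28A and LIN28B bind precursors of the let-7 microRNAs and block their maturation, and mature let-7 represses HMGA2, IGF2BP1, IGF2BP2, IGF2BP3 and LIN28 itself through sites in their messages. HMGA1 and HMGA2 are small chromatin proteins that bind AT-rich DNA and bend it, the IGF2BP proteins bind and stabilise messages such as those of IGF2 and MYC, and PLAG1 is a zinc-finger transcription factor that activates Igf2. HMGA2 is known in mesenchyme as a gene of fetal growth that is rearranged in benign fat and smooth muscle tumours.

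Cells were sorted into classes by counts of unique molecular identifiers (UMIs, 1 per captured transcript). Cells with at least 2 UMIs of Gchfr, a gene of these sarcoma cells that encodes the feedback regulator of GTP cyclohydrolase, and with 0 of Smarcb1 were called sarcoma cells. They numbered 5142, 7423, 2851 and 3265 in sarcomas 1 to 4 and 0 of 8107 in muscle. Cells with at least 4 UMIs over Ddah1, Wisp1, C1qtnf7 and Fbn2 were called stroma, and numbered 184, 156, 1732 and 79 in sarcomas 1 to 4. The 218 cells that met both rules were left out of both classes. Apart from these and from cells with mural markers (defined below), 1871, 477, 1992 and 3365 kept cells of sarcomas 1 to 4 fell in no class. All kept cells of the muscle library served as muscle cells, since its 175 cells under the stroma rule were rich in tenocyte and myogenic markers (6812 and 1093 CPM summed over each list, where CPM is a gene's UMIs scaled to a common class total). All 8 progenitor markers were detected in muscle cells, at 53893 CPM in sum, against 755 to 7686 CPM in sarcoma cells. The median kept cell held 7566 UMIs in muscle and between 20005 and 28658 in the sarcomas, and library totals ran from 64061069 to 213271163 UMIs. Pairs of libraries shared between 12 and 22 cell barcodes.

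The stroma of sarcoma 4 went against its name. Only 13 of its 79 cells (16.5%) held a Smarcb1 UMI, against 57.1%, 76.3% and 69.2% of stroma cells in sarcomas 1 to 3. Its Smarcb1 level was 9.75 CPM against 45.1, 66.4 and 59.8, its summed progenitor markers came to 1053 CPM against 6078 to 12391, and its level of the sarcoma-cell gene Cdkn2a was 109 CPM beside 115 in the sarcoma cells of that library. Results on stroma are therefore given with and without sarcoma 4.

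The results turn most on Hmga2 (ENSMUSG00000056758), at chr10:120361275-120476469 on the minus strand, and on Igf2bp2 (ENSMUSG00000033581), at chr16:22059009-22163299, also on the minus strand (GRCm38, the mm10 build). RefSeq gave a promoter for 6 of the 8 genes. The 250 bases upstream of the annotated starts of Hmga2 (chr10:120476470-120476719, minus strand) and Igf2bp2 (chr16:22163300-22163549, minus strand) are shown as the sequence next to the starts of these 2 genes, and they overlap no annotated exon. Capitals mark GC boxes (GGGCGG on either strand), the motif known to be bound by SP1.
Hmga2: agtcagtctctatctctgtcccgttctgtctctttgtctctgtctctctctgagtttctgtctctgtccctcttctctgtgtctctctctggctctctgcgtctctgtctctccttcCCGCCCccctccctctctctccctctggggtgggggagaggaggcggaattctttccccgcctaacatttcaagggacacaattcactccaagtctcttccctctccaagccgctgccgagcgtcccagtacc
Igf2bp2: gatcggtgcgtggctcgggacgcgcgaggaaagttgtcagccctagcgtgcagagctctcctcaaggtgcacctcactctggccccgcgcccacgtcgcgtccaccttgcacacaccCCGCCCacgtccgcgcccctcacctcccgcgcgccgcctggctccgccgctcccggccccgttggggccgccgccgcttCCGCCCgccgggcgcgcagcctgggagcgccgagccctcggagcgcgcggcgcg
The Hmga2 window held 1 GC box and had a GC content of 56.4%. The Igf2bp2 window held 2 GC boxes at a GC content of 77.2%, against a median of 52.4% over all promoters of the same length. A GC box was present in 10756 of 32851 such promoters (32.7%). Other motifs searched on both strands were in neither window: the CCAAT box (CCAAT, in 33.8% of all promoters), the TATA box (TATAAA, in 12.4%), the E-box (CACGTG, in 6.02%) and the AP-1 motif (TGANTCA, in 6.75%). These matches describe letters only and not binding.

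The let-7 microRNAs that link LIN28 to Hmga2 are shown to make the pathway readable, with the seed (bases 2 to 8) in capitals. They were not measured, since the assay captures polyadenylated messages.
let-7a-5p: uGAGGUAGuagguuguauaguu
let-7d-5p: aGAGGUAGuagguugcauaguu
let-7g-5p: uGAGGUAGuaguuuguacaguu
All 8 mature let-7 5p sequences in RefSeq carried this 1 seed, so a message with a matching site is a potential target of each of them.

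Hmga2 was abundant in the sarcoma cells of 3 tumours and near the muscle level in the fourth. Its level was 563 CPM in sarcoma cells of sarcoma 1, 363 in sarcoma 2, 201 in sarcoma 3 and 1.25 in sarcoma 4, against 1.12 CPM in muscle cells. The first 3 tumours stood 502-fold, 324-fold and 179-fold above muscle, while the level in sarcoma 4 had a 95% Poisson interval of 1.05 to 1.47 that overlapped that of muscle (up to 1.41). Intervals of levels and shares cover counting error only. The median sarcoma cell held 14 Hmga2 UMIs in sarcoma 1, 6 in sarcoma 2, 2 in sarcoma 3 and 0 in sarcoma 4. The most any such cell held was 97, 83, 75 and 7 UMIs in the same order, and 3 in muscle. Hmga2 was not confined to this class. Cells outside the sarcoma, stroma and mural classes held it at 1.42 to 459 CPM over the sarcoma libraries, with a mean of 211 beside 282 in sarcoma cells.

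Across libraries the difference between sarcoma cells and muscle cells in Hmga2 was 8.21 ± 3.91 on the log2 scale (SE), and it did not pass the test over all genes (edgeR quasi-likelihood test, Benjamini-Hochberg adjusted p = 0.459). No gene passed in this comparison, 0 of 17747 (0%), with 2326 at an unadjusted p under the threshold of 0.05. DESeq2 called 950 genes higher and 999 lower (11.8% of 16539), Hmga2 among the higher with an adjusted p of 0.00374. Over the 11 alternatives for Hmga2 the adjusted p ran from 0.00374 to 0.650 and the log2 fold change from 7.56 to 8.62. The muscle group had 1 library, which was assumed to vary like the sarcomas, and those ranged from 1.25 to 563 CPM in this gene.

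Hmga1, the widely expressed relative of Hmga2, was higher in sarcoma cells of each tumour than in muscle. Its levels were 30.0, 9.96, 5.18 and 3.93 CPM in sarcomas 1 to 4, against 0.806 CPM in muscle, which is 37.2-fold, 12.4-fold, 6.43-fold and 4.88-fold more. The tumours had the same order as for Hmga2, but the lowest, sarcoma 4, still lay above muscle beyond counting error. The difference over libraries was 4.19 ± 1.76 (log2, SE) and did not pass (edgeR adjusted p = 0.421, 0.0315 with DESeq2, range over 11 alternatives 0.0315 to 0.626). Hmga1 (ENSMUSG00000046711) lies at chr17:27556497-27563674 on the plus strand (GRCm38).

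Hmga2 and Hmga1 were the only 2 of the 6 members tested here whose sarcoma-cell levels all lay above muscle, as they did for 20.3% of all genes. In sarcoma 4 the Hmga2 difference, 1.25 against 1.12 CPM, lay within counting error. Igf2bp3 lay below muscle in all 4, as did 31.9% of genes. Scaling by library size in place of TMM moved the median log2 fold change of all genes in this comparison from 0.19 to −0.01 and changed the direction of no member.

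**Figure D1:**
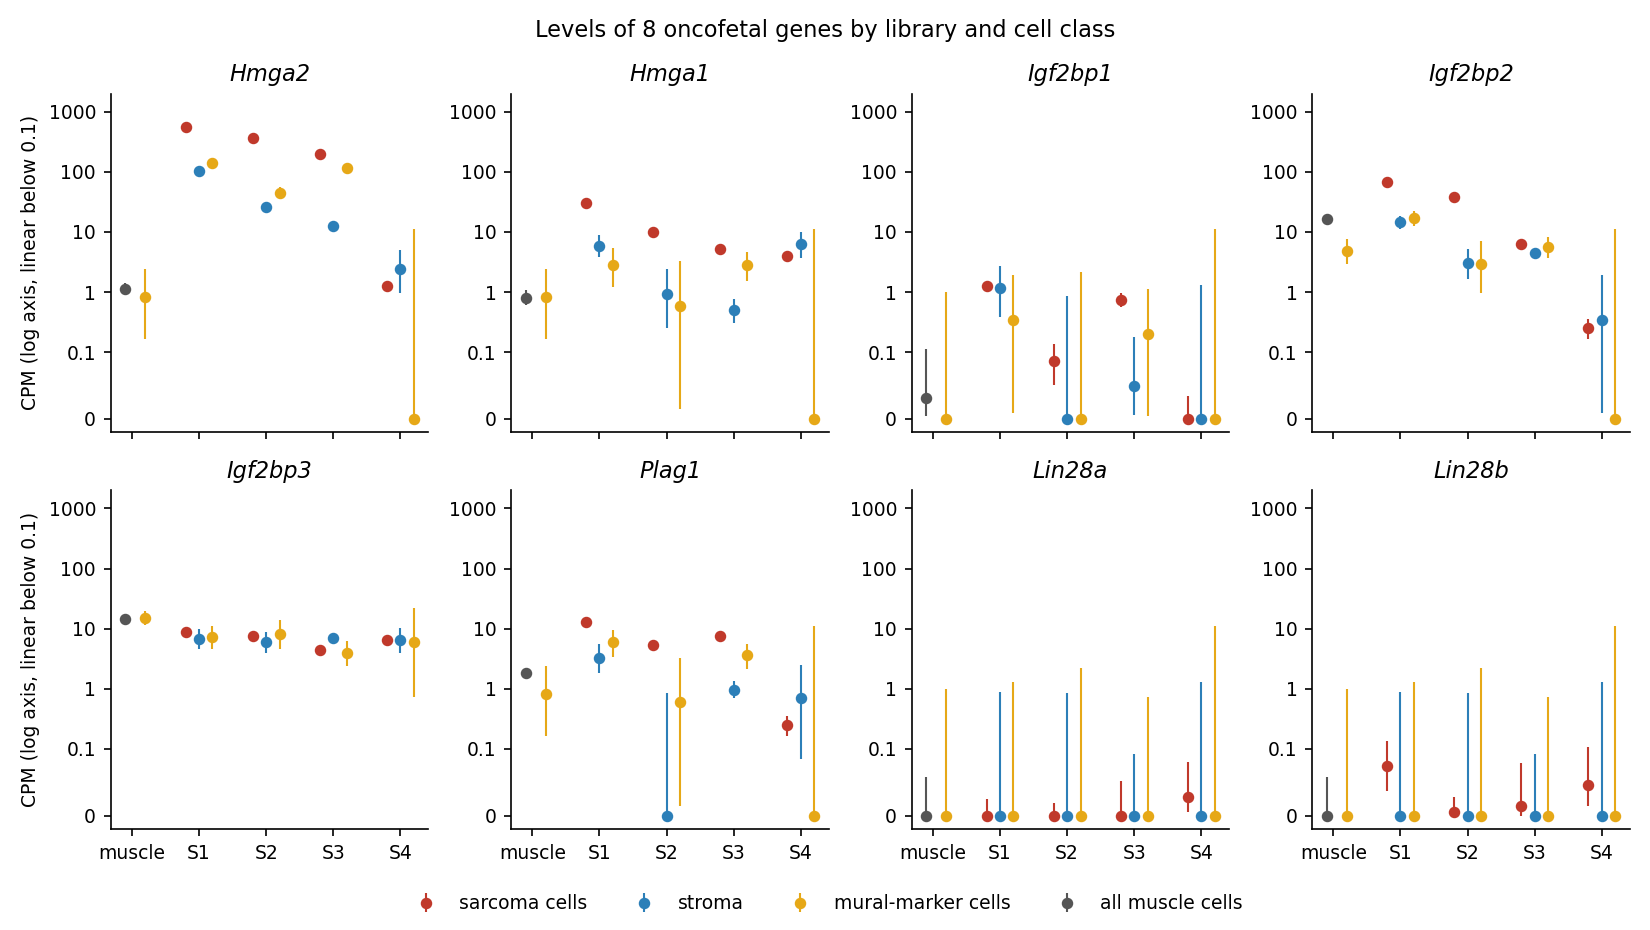
Levels of the 8 genes (CPM, log axis that is linear below 0.1) in muscle and in sarcomas 1 to 4 (S1 to S4), with points for each cell class and bars for 95% Poisson intervals of counting error. Hmga2 in sarcoma cells falls from 563 CPM in S1 to 1.25 in S4, while Igf2bp3 stays between 4.35 and 8.76 CPM in the sarcoma cells and Lin28a and Lin28b lie at or near 0.

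The 3 Igf2bp genes, which encode message-binding proteins of the same family, each had a pattern of their own. Igf2bp2, the member that also occurs in adult tissue, was counted at 66.8, 38.6, 6.21 and 0.247 CPM in sarcoma cells of sarcomas 1 to 4 and at 16.5 CPM in muscle cells. Sarcomas 1 and 2 thus lay 4.05-fold and 2.34-fold above muscle, sarcoma 3 lay 2.66-fold below it and sarcoma 4 lay 66.7-fold below it. The groups overlapped, and the difference was 1.03 ± 2.58 (log2, SE, edgeR adjusted p = 0.882). All neighbours in this order were apart beyond counting error.

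Within muscle, Igf2bp2 was counted at 21.7 CPM in cells with Col15a1, at 14.0 in cells with Pi16 or Dpp4 and at 4.87 in cells with mural markers (at least 6 UMIs over Rgs5, Notch3, Kcnj8, Abcc9, Cspg4 and Myh11). The first 2 of these subsets were chosen after the data were seen. Cells outside the mural and stroma rules held 1013 of the 1044 Igf2bp2 UMIs in muscle.

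Igf2bp3 was the steadiest of the 8 genes in sarcoma cells. Its levels were 8.76, 7.44, 4.35 and 6.54 CPM in sarcoma cells and 14.6 CPM in muscle. Sarcoma cells of every tumour thus lay 1.67-fold to 3.37-fold below muscle. Cells outside the sarcoma, stroma and mural classes ran from 6.80 to 16.7 CPM over the sarcoma libraries, the highest of them above muscle. The difference between sarcoma cells and muscle was −0.88 ± 0.57 (log2, SE) and did not pass (edgeR adjusted p = 0.567). Sarcoma 4, the lowest tumour for Hmga1, Hmga2, Igf2bp1, Igf2bp2 and Plag1, was not the lowest for Igf2bp3.

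Igf2bp1, the most strictly fetal of the family, was close to the limit of detection. It was counted at 1.25 CPM (184 UMIs) in sarcoma cells of sarcoma 1, 0.0863 (17 UMIs) in sarcoma 2 and 0.746 (53 UMIs) in sarcoma 3, and it had 0 UMIs in sarcoma 4, where a count of 0 allows up to 0.0275 CPM (3 counts). Muscle cells held 2 UMIs (0.0316 CPM, 95% Poisson interval 0.00383 to 0.114). Sarcomas 1 and 3 lay above muscle beyond counting error and sarcomas 2 and 4 did not (log2 difference 4.18 ± 3.65, SE, edgeR adjusted p = 0.654).

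Plag1 followed Hmga2 in which tumour was lowest. It was counted at 12.9, 5.29, 7.44 and 0.247 CPM in sarcoma cells of sarcomas 1 to 4 and at 1.82 in muscle cells. Sarcomas 1 to 3 lay 7.10-fold, 2.91-fold and 4.09-fold above muscle, and sarcoma 4 lay 7.34-fold below it. The difference over libraries was 2.04 ± 2.02 (log2, SE, edgeR adjusted p = 0.686).

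The Lin28 genes, the inhibitors of let-7, had 0 or few UMIs in every class. Lin28a had 0 UMIs in muscle cells and in the sarcoma cells of sarcomas 1 to 3, where 3 counts would be 0.0474, 0.0205, 0.0152 and 0.0422 CPM. Sarcoma cells of sarcoma 4 held 3 Lin28a UMIs (0.0275 CPM). Lin28b had 0 UMIs in muscle and 11, 1, 1 and 5 UMIs in sarcoma cells of sarcomas 1 to 4 (0.0750, 0.00508, 0.0141 and 0.0458 CPM). Neither gene had a UMI in stroma or in mural-marker cells of any library. Sarcomas 1 to 3, with Hmga2 at 201 to 563 CPM, thus held at most 0.0750 CPM of either Lin28 gene in the same cells.

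Whole libraries, without a choice of cells, gave nearly the same picture. Hmga2 was counted at 526, 350, 126 and 1.33 CPM in sarcomas 1 to 4 and at 1.12 in muscle, and the log2 difference was 8.04 ± 3.85 (SE, edgeR adjusted p = 0.588). In this comparison edgeR called 0 of 18739 genes (0%), with 1715 at an unadjusted p under 0.05, and DESeq2 called 1163 (6.78% of 17151), Hmga2 the only member among them (adjusted p = 0.00734, range over 9 alternatives 0.00734 to 0.814). Igf2bp3 lay below muscle in all 4 whole libraries, as did 29.7% of genes, and Hmga1, Hmga2 and Igf2bp1 lay above, as did 21.4%. The lowest whole-library levels of Hmga2 (1.33 CPM) and Igf2bp1 (0.0454 CPM) lay inside the 95% Poisson intervals of muscle, which reached 1.41 and 0.114 CPM. Lin28b had 26, 1, 2 and 9 UMIs in the whole sarcoma libraries and 0 in muscle. With 0 counts in muscle (up to 0.0474 CPM), no direction can be read for Lin28b from sarcomas 2 to 4. In sarcoma 1 the sarcoma-cell class held 11 of the 26 UMIs, and cells outside the sarcoma, stroma and mural classes held 15, at 0.401 CPM (95% Poisson interval 0.224 to 0.661).

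The next comparison set sarcoma cells beside stroma of the same tumour. Hmga2 in stroma was counted at 104, 25.7, 12.3 and 2.44 CPM in sarcomas 1 to 4. Hmga1 was counted at 5.91, 0.936, 0.4997 and 6.27 CPM there and Igf2bp2 at 14.4, 3.04, 4.40 and 0.348 CPM. In sarcomas 1 to 3 stroma lay below sarcoma cells for all 3 genes, and in sarcoma 4 the classes did not differ beyond counting error for any of the 3, with 1 Igf2bp2 UMI in stroma. Sarcoma cells were higher in all 4 tumours for 18.3% of genes and lower for 16.2%, and higher in sarcomas 1 to 3 for 34.4% and lower for 24.1%. No member had sarcoma-cell levels all above or all below those of stroma, as 2.99% and 4.61% of genes did.

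With all 4 tumours and the library as a block, edgeR called 34 genes higher and 137 lower in sarcoma cells than in stroma (1.17% of 14569), and 0 of the 5 members tested. DESeq2 called 3218 genes (22.1%), Hmga2 (adjusted p = 0.0129) and Hmga1 (0.0221) among them, and 3914 genes had an unadjusted p under 0.05 in edgeR. Hmga2 was higher by 2.74 ± 0.88 (log2, SE, edgeR adjusted p = 0.152), Hmga1 by 2.14 ± 0.78 (0.173), Igf2bp2 by 1.90 ± 0.70 (0.175) and Plag1 by 2.44 ± 1.01 (0.202), none past the threshold. Igf2bp3 differed by −0.01 ± 0.27 (0.984). The median over these 5 members was 2.14, beside 0.07 over all genes tested.

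Without sarcoma 4, whose stroma stood apart, edgeR called 593 genes higher and 974 lower (10.5% of 14911). Hmga2 (3.42, adjusted p = 0.0268) and Hmga1 (2.97, adjusted p = 0.0242) then passed as higher in sarcoma cells, each in 3 of 3 tumours. With stroma limited to cells holding a Smarcb1 UMI, an alternative chosen after seeing the data, edgeR called 1186 genes (8.38%). Hmga2 (3.38, edgeR adjusted p = 0.00516) and Hmga1 (2.69, edgeR adjusted p = 0.0206) were among those higher in sarcoma cells. That fit included sarcoma 4, whose limited stroma was 13 cells and whose sarcoma cells held Hmga2 at only 1.25 CPM. Smarcb1 also enters the rule for sarcoma cells, so the limit sets the 2 classes further apart by the same gene. Over the 14 alternatives the adjusted p ran from 0.00160 to 0.436 for Hmga2 and from 0.0206 to 0.431 for Hmga1. Without sarcoma 1, 2 or 3 in turn, edgeR called 0, 0 and 2 genes and none of these members.

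The 5 genes chosen as sarcoma-cell genes were also counted in stroma. Among them Spp1, which encodes the secreted protein osteopontin, was higher in stroma than in sarcoma cells of every tumour, by 3.85-fold, 84.5-fold, 31.0-fold and 2.74-fold in sarcomas 1 to 4, and the other 4 are set beside the members. In sarcoma 1 the stroma level was 0.184 of the sarcoma-cell level for Hmga2, 0.197 for Hmga1 and 0.216 for Igf2bp2, beside 0.228 for Cdkn2a (the cell-cycle inhibitors p16 and p19), 0.244 for Nefl (a neurofilament), 0.118 for Pcsk1 (a prohormone convertase) and 0.161 for March11 (a ubiquitin ligase). In sarcoma 2 the shares were 0.0709, 0.0939 and 0.0787, beside 0.179, 0.0787, 0.0443 and 0.113. In sarcoma 3 they were 0.0613 for Hmga2 and 0.0964 for Hmga1, beside 0.0868, 0.0915, 0.0869 and 0.0774. Hmga2 and Hmga1 thus lay within the range of these 4 genes in sarcomas 1 and 2, a range picked after Spp1 was seen to differ, and in sarcoma 3 Hmga2 lay below that range and Hmga1 above it. The part of free RNA from sarcoma cells, and of doublets, in these stroma levels was not tested.

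Of Igf2bp2 and Igf2bp3 in sarcomas 1 to 3, Igf2bp3 departed from these proportions in each tumour and Igf2bp2 only in sarcoma 3. At 0.216 and 0.0787 in sarcomas 1 and 2, Igf2bp2 lay within the range of Cdkn2a, Nefl, Pcsk1 and March11. In sarcoma 3, the tumour with the most stroma cells, Igf2bp2 in stroma reached 0.708 of its sarcoma-cell level, 4.40 against 6.21 CPM. Igf2bp3 in stroma was 0.782, 0.818, 1.58 and 1.01 of the sarcoma-cell level in sarcomas 1 to 4, and ran only from 6.08 to 6.90 CPM. Plag1 was at 3.31, 0, 0.974 and 0.696 CPM in stroma. In sarcomas 1 to 3 that was 0.257, 0 and 0.131 of its sarcoma-cell level, on 14, 0 and 39 stroma UMIs. These Plag1 ratios also lay outside the range of Cdkn2a, Nefl, Pcsk1 and March11, below it in sarcoma 2 and above it in sarcomas 1 and 3.

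**Figure D2:**
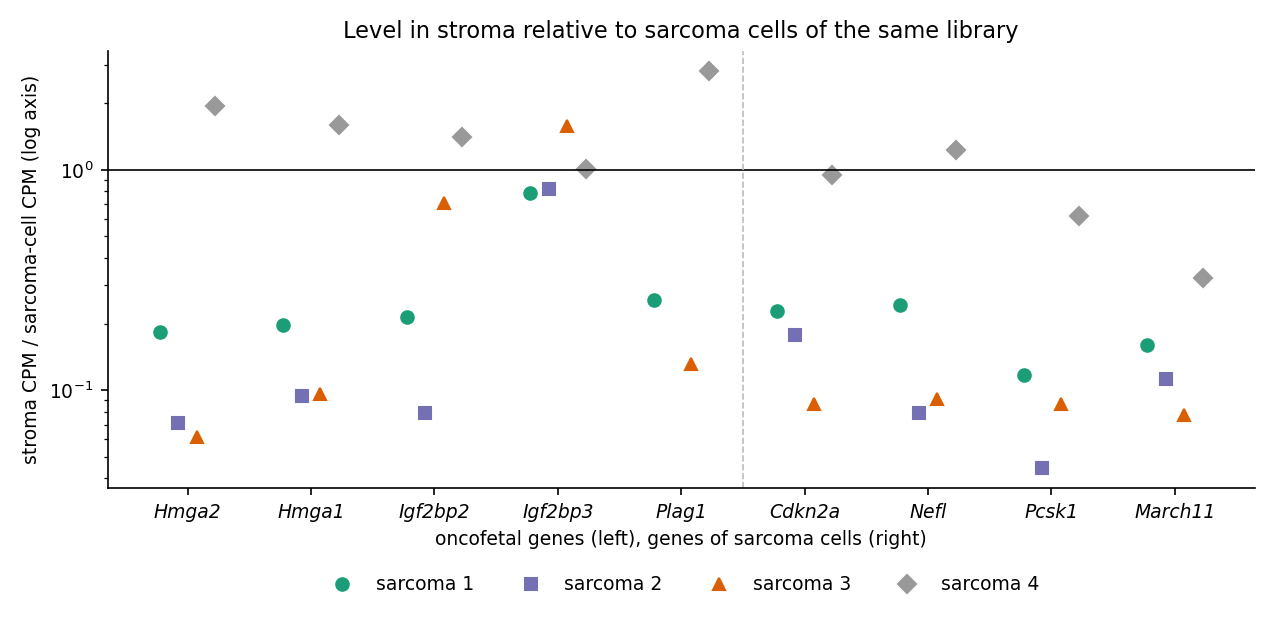
Stroma level divided by sarcoma-cell level of the same library (log axis) for 5 oncofetal genes and 4 genes of sarcoma cells, 1 symbol per tumour. Plag1 in sarcoma 2 is not drawn because its stroma level was 0. Hmga2 and Hmga1 in sarcomas 1 to 3 lie between 0.0613 and 0.197, near the sarcoma-cell genes, and sarcoma 4 lies near or above 1 for most genes, with its Igf2bp2 and Plag1 points resting on 1 and 2 stroma UMIs.

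Stroma of the tumours was then compared with muscle cells. Igf2bp3 at 6.85, 6.08, 6.90 and 6.62 CPM lay below the 14.6 CPM of muscle in every tumour. Igf2bp2 lay below its 16.5 CPM in every tumour too, in sarcoma 1 by only 1.14-fold, on 61 UMIs and within counting error. Hmga2 lay above muscle in all 4, in sarcoma 4 within counting error (95% Poisson interval 0.980 to 5.02 CPM). As background, 31.1% of all genes lay below muscle in all 4 stroma sums and 18.3% above. None of the 5 members tested passed: edgeR called 0 of 12855 genes (0%, 1221 unadjusted), and DESeq2 called 561 (4.39%) and 0 members. The log2 differences were −1.08 ± 0.32 for Igf2bp3 (SE, edgeR adjusted p = 0.446), −1.48 ± 1.34 for Igf2bp2 (0.736), 5.08 ± 2.46 for Hmga2 (0.594), 2.09 ± 1.76 for Hmga1 (0.720) and −0.47 ± 1.76 for Plag1 (0.940). Without sarcoma 4 edgeR called 74 genes higher and 102 lower (1.16% of 15164), and with the Smarcb1 limit it called 61 (0.493%), with 0 members in each.

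Mural-marker cells were few (196, 126, 311 and 24 in sarcomas 1 to 4). Hmga2 was counted there at 139, 44.5, 116 and 0 CPM, which was 0.247, 0.123 and 0.579 of the sarcoma-cell level in sarcomas 1 to 3. In sarcoma 3 the same ratio was 0.621 for Nefl, 0.569 for March11, 0.387 for Cdkn2a, 0.914 for Pcsk1 and 3.43 for Spp1. In mural-marker cells of muscle Hmga2 was counted at 0.812 CPM.

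Shares of cells with a UMI were compared after each cell was thinned to 2000 UMIs, since tumour cells were deeper than muscle cells. An Hmga2 UMI was found in 63.4% of sarcoma cells in sarcoma 1 (95% exact binomial interval 62.1 to 64.8), 40.5% in sarcoma 2, 24.4% in sarcoma 3 and 0.215% in sarcoma 4, against 0.246% of muscle cells. Unthinned, the shares were 98.4%, 79.7%, 71.0% and 2.82%, and 0.802% in muscle. Stroma held a share of 8.20%, 1.92%, 1.16% and 0 of 79 cells, the last of which allows up to 3.797%. The unthinned stroma shares were 24.5%, 11.5%, 8.31% and 3.797%. The sarcoma 4 share of sarcoma cells lay inside the muscle interval of 0.148 to 0.384%. The muscle library holds no tumour RNA, so its share does not measure free tumour RNA in the sarcoma libraries, and the part of that RNA in these shares was not tested.

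Sarcoma cells of 1 tumour differed widely in Hmga2. At 5000 UMIs per cell 88.2%, 64.5% and 43.6% of sarcoma cells in sarcomas 1 to 3 held a UMI. At the other end, 68.7%, 38.7% and 17.4% of sarcoma cells held 10 or more Hmga2 UMIs without thinning. Cells of sarcomas 2 and 3 thus ranged from 0 to at least 75 UMIs within 1 library, without thinning. The part of cell depth and of doublets in this range was not tested.

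For Igf2bp2 the thinned shares were 12.4%, 6.50%, 0.915% and 0.0923% of sarcoma cells in sarcomas 1 to 4 and 3.34% of muscle cells. The shares for Igf2bp3 were 1.62%, 1.58%, 0.810% and 1.32%, and 2.97% of muscle cells. Both orders matched those of the CPM levels. In stroma of sarcoma 3 the thinned shares were 0.751% for Igf2bp2 and 1.33% for Igf2bp3, inside or above the intervals of sarcoma cells there (0.599 to 1.34% and 0.514 to 1.21%). For Hmga1 the sarcoma-cell shares were 5.43%, 1.58%, 0.458% and 0.830% and for Plag1 they were 2.83%, 1.02%, 1.80% and 0.0308%, against 0.168% and 0.401% of muscle cells. The Hmga1 shares of sarcomas 3 and 4 went against the order of their levels, and their intervals overlapped.

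**Figure D3:**
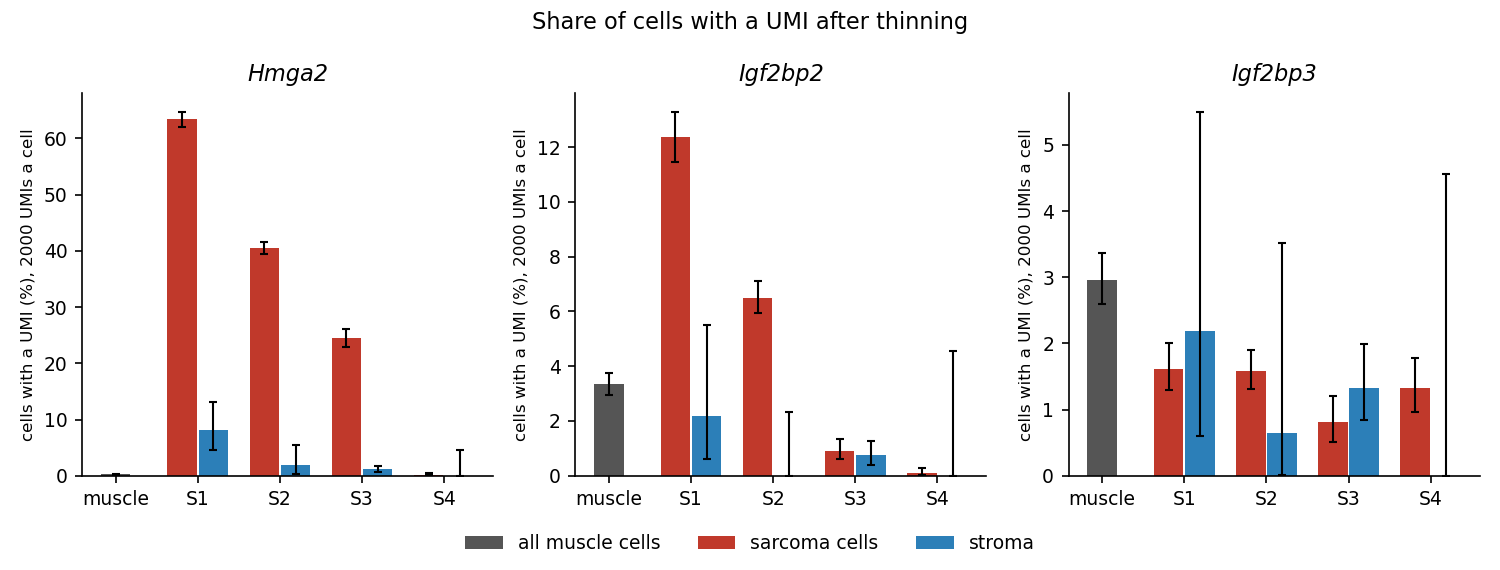
Share of cells with a UMI (%) after thinning to 2000 UMIs per cell for Hmga2, Igf2bp2 and Igf2bp3, as bars with 95% exact binomial intervals. Hmga2 falls from 63.4% of sarcoma cells in S1 to 0.215% in S4, and Igf2bp3 is higher in muscle, at 2.97%, than in the sarcoma cells of each tumour.

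Cycling cells were compared with the other sarcoma cells to see whether the oncofetal genes moved with division. Cycling cells had at least 3 UMIs over 9 genes of division such as Mki67, Top2a and Cdk1, after thinning to 5000 UMIs. They made up 18.4%, 12.8%, 5.12% and 5.84% of the sarcoma cells with at least 5000 UMIs in sarcomas 1 to 4. The 111, 861, 39 and 61 shallower sarcoma cells were left out of both groups. Hmga2 was counted at 554, 351, 289 and 0.906 CPM in cycling cells and at 566, 368, 194 and 1.27 CPM in the others. It was lower in cycling cells of 3 tumours and higher in those of sarcoma 3. The difference was 0.08 ± 0.17 (log2, SE, edgeR adjusted p = 0.785), with a range of −0.15 to 0.15 over the alternatives.

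This comparison had many calls, 1295 genes higher and 1301 lower in cycling cells (9.39% and 9.43%, together 18.8% of 13792), and 0 of the 6 members tested among them. Without sarcoma 1 it had 1038 calls and without sarcoma 2 it had 1035, and no member was called in either. With library-size scaling the split was 1588 higher and 720 lower. Hmga1 was counted at 37.4, 10.7, 16.9 and 2.98 CPM in cycling cells and at 27.9, 9.88, 4.18 and 4.01 in the others, higher in 3 of 4 tumours (0.50 ± 0.37, edgeR adjusted p = 0.373). Igf2bp2 differed by 0.02 ± 0.11 (0.923), Igf2bp3 by −0.14 ± 0.13 (0.471), Plag1 by −0.27 ± 0.19 (0.350) and Igf2bp1 by 1.01 ± 0.52 (0.223). None of these differences passed. Cycling cells were higher in each tumour for 22.7% of genes and lower for 20.7%, and their levels lay wholly above or below the others for 6.74% and 0.856%, with 0 members in any of these.

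Of 11 other HMG genes in the list, 7 were called higher in cycling cells and 0 lower, beside 9.39% and 9.43% of all genes, and all 7 were also called with library-size scaling, with DESeq2 and without sarcoma 4. Without sarcoma 1 or sarcoma 2, 5 of the 7 were called, and with no replicate block 3. The largest rises were those of Hmgb2 (3.53 ± 0.23, log2, SE, edgeR adjusted p = 2.00e-04), Hmgb3 (2.57 ± 0.17, 1.92e-04) and Hmgn2 (1.90 ± 0.13, 2.74e-04), proteins that bend DNA or bind nucleosomes. Hmgb1 rose by 0.70 ± 0.08 and Hmgn1 by 0.66 ± 0.09. The list's median was 0.65, beside −0.09 over all genes tested. Of the 15 partners and m6A factors of the IGF2BP proteins, 5 were called higher (Syncrip, Ybx1, Hnrnpu, Dhx9 and Elavl1, by 0.27 to 0.46) and 0 lower. Of these 5, 0 were called without sarcoma 1, without sarcoma 2 or with no replicate block.

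**Figure D4:**
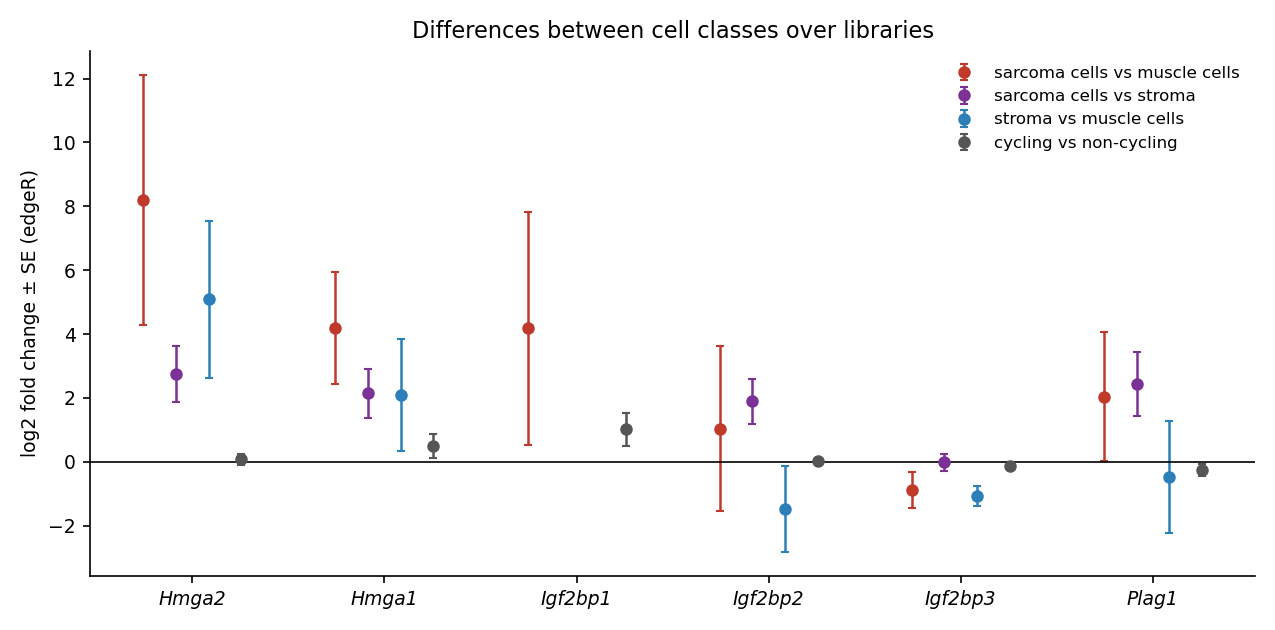
Log2 fold changes with standard errors from edgeR for the members tested in 4 comparisons, each over libraries. Hmga2 stands at 8.21 in sarcoma cells against muscle with a wide error, at 2.74 against stroma and at 0.08 in cycling against non-cycling cells.

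Genes regulated by let-7 besides the members were then read in the same cells. Of 22 in the list, 0 passed in sarcoma cells against muscle cells and 0 of the 21 tested passed against stroma. Sarcoma cells of sarcoma 4 had the highest of the 4 levels for 8 of the 22 and the lowest for 5, beside 26.0% and 34.2% of all genes with a mean of at least 1 CPM. Among the 8 members the same counts were 1 and 5.

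Ccnd1, the cyclin of early G1 phase, was counted at 1067, 825, 650 and 30.0 CPM in sarcoma cells of sarcomas 1 to 4 and at 18.96 in muscle, the order of Hmga2. Its relative Ccnd2 was counted at 126, 52.3, 252 and 952 CPM in sarcoma cells and at 133 in muscle, and was highest in sarcoma 4. In cycling against non-cycling cells Ccnd2 was called lower (−1.19 ± 0.20, log2, SE, edgeR adjusted p = 0.0105), and Cdc25a was called higher (0.96 ± 0.11, edgeR adjusted p = 0.00209). Neither was called when the replicate block was left out.

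Several genes outside the naming rule were singled out after their values were seen. Mycn, the fetal relative of Myc, was counted at 82.2 CPM in sarcoma cells of sarcoma 4 and at 0, 0.0203 and 0.0423 in sarcomas 1 to 3, while Myc was counted at 1.07 CPM in sarcoma 4 and at 175, 68.4 and 45.2 in the others. Trim71, another heterochronic gene and a let-7 target, stood at 7.50 CPM in sarcoma 4 and at 1.12, 0.554 and 1.28 in sarcomas 1 to 3. Sall4, an embryonic transcription factor, stood at 3.58 CPM in sarcoma 4 and under 0.1 in the others. Cdk6, the kinase partner of D-type cyclins, was at 64.9, 92.6, 93.5 and 74.2 CPM in sarcoma cells against 5.12 in muscle. Sarcoma 4, the tumour near the muscle level for Hmga2, thus held the highest levels of 3 other embryonic genes. Sarcoma 4 also differed in markers: the 4 tenocyte markers came to 364 CPM in its sarcoma cells, against 3.52 to 95.6 in the other tumours, the 3 keratinocyte markers to 18.2 CPM, against at most 0.0282, and the progenitor markers to 755 CPM, against 2398 to 7686. Hic1 itself was at 0.898 CPM there, against 24.8 to 28.4 in the other tumours and 48.8 in muscle. The part of cells with such markers in these values was not tested.

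**Figure D5:**
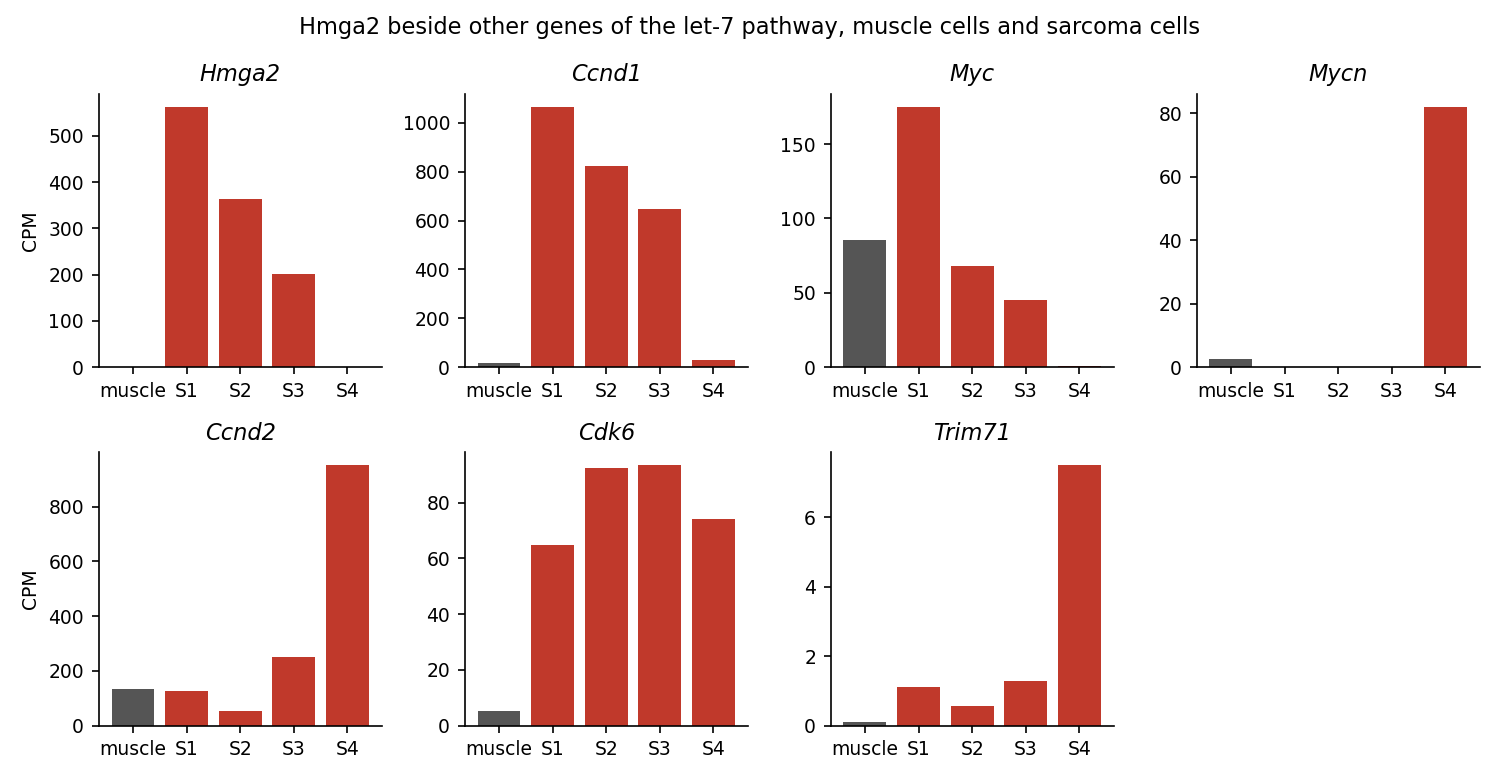
Level (CPM, linear axes that start at 0 and differ between panels) of Hmga2 and 6 genes of the let-7 pathway in muscle cells and in sarcoma cells of S1 to S4. Ccnd1 and Myc are low in S4 like Hmga2, at 30.0 and 1.07 CPM, and Mycn, Ccnd2 and Trim71 are highest there.

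The let-7 and LIN28 pathway enzymes were read beside all genes, of which 0% were called against muscle and 1.17% against stroma. Of 11 in the list, 0 were called in sarcoma cells against muscle (median 0.21 on the log2 scale, beside 0.19 over all genes) or against stroma (median 0.26, beside 0.07). Ago2, which holds the mature microRNA, was counted at 71.1, 89.3, 109 and 72.7 CPM in sarcoma cells and 58.9 in muscle. The uridylyl transferase genes Zcchc11 and Zcchc6, whose products act with LIN28 on let-7 precursors, were at 57.3, 81.2, 54.7 and 37.0 CPM and at 70.6, 83.1, 48.9 and 32.2 CPM, against 74.5 and 45.8 in muscle.

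The IGF axis, which PLAG1 and the IGF2BP proteins act on, was read next. Of 10 genes in the list 0 were called against muscle or stroma, beside 0% and 1.17% of all genes. Below muscle in the sarcoma cells of all 4 tumours lay 7 of the 10, beside 31.9% of all genes. Igf1, which encodes insulin-like growth factor 1, was counted at 1.44, 1.12, 8.62 and 4.47 CPM in sarcoma cells and at 291 in muscle (−6.10 ± 0.98, log2, SE, edgeR adjusted p = 0.178). In stroma it was counted at 423, 498, 730 and 62.3 CPM. Igf2 itself was at 2.00, 0.157, 0.282 and 7.30 CPM in sarcoma cells and 10.1 in muscle, below muscle in all 4 tumours. The receptor genes Igf1r and Igf2r were at 67.7, 78.9, 95.3 and 21.0 CPM and at 154, 23.1, 60.4 and 11.5 CPM, against 99.7 and 140 in muscle.

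Among other oncofetal genes, Dlk1, a fetal membrane protein related to the Notch ligands, was counted at 561, 148, 1601 and 7.55 CPM in sarcoma cells and at 21.7 in muscle. It shared with Hmga2 its lowest level in sarcoma 4. Gpc3, a fetal glypican, went the other way, at 6.77, 1.18, 0.746 and 3.45 CPM in sarcoma cells against 214 in muscle (−5.87 ± 1.17, edgeR adjusted p = 0.207). The trophoblast glycoprotein gene Tpbg was at 11.2, 3.07, 75.6 and 53.7 CPM, against 27.7. None of the list passed in either comparison.

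The other HMG genes and the IGF2BP partners also held 0 calls in sarcoma cells against muscle (0% of all genes) or stroma (1.17%). Of the 11 other HMG genes, 5 lay above muscle in the sarcoma cells of all 4 tumours and 2 below, beside 20.3% and 31.9% of all genes, with a median log2 difference of 0.43 beside 0.19. Among them Hmgb1 was at 1321, 1280, 1195 and 987 CPM in sarcoma cells and 544 in muscle (1.35 ± 0.45, SE, edgeR adjusted p = 0.336). Of the 15 IGF2BP partners and m6A factors, 4 lay above and 5 below, near those shares of all genes, with a median of 0.11. Ybx1, a message-binding protein, was at 931, 782, 802 and 528 CPM in sarcoma cells and 564 in muscle, so its groups overlapped.

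The genes most like each member were sought over 9 sums (muscle cells, and sarcoma cells and stroma of each tumour) by Pearson's r of log2(CPM + 1). The 9 points share libraries and 8492 genes were ranked, so the values are a description only. For Hmga2 the 5 nearest were Rasgrf1 (r = 0.995), Tcf24, Sapcd1, Ccnd1 and Sorbs2. Rasgrf1, a RAS exchange factor, averaged 153 CPM in sarcoma cells and stood at 0.559 in those of sarcoma 4. For Igf2bp2 they were Ralgds, Syde2, Glul, Sipa1l3 and Evi2a, for Hmga1 Psmb7, Rpl7l1, Ccdc86, Atp5o and Sfr1, for Igf2bp3 Fgd4, Rgmb, Acadm, Qpct and Unc119b, and for Plag1 Oraov1, Ngfrap1, Dlst, Ubtd1 and Sertad3. Between members, r was 0.81 for Hmga2 with Plag1, 0.73 for Hmga2 with Igf2bp2, 0.64 for Hmga2 with Hmga1 and −0.31 for Hmga2 with Igf2bp3.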

How the data were processed

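Cell Ranger 6.0.1 made the deposited matrices, per the file headers, on mm10, per the submitters' processing notes. No annotation release was named in the sources used here. The authors deposited raw UMI counts per gene and barcode. Groups came from the labels. The members and gene lists were chosen with earlier results of these data known. Barcodes under 500 genes or above 10% mitochondrial UMIs were dropped, and doublets were not removed. Counts were summed per library and class, scaled to CPM with 95% Poisson intervals, and tested with edgeR 4.0.16 (R 4.3.3; quasi-likelihood, TMM, filterByExpr, Benjamini-Hochberg at 0.05), with the library as a block within tumours because both classes come from the same library. DESeq2 1.42.0, other scaling, filters, cell rules, thinning and leaving out each tumour were alternatives. The fits were also run on simulated counts with known changes and the same dispersion for all genes. That run does not measure how the fits perform at the spread between these sarcomas. All members were named, the 3 list genes with the highest mean CPM over 9 sums, and the 5 genes most like each member. Positions are from GENCODE M21 and sequences from RefSeq (GRCm38.p6). Python 3.11.15 with scipy 1.17.1 was used. Some features of the lists are not reported here.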

Additional observations from a re-analysis of the deposited data

How the results depend on the processing

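No paired analysis was possible for the comparisons with muscle because muscle has 1 library, which shares fewer than 2 replicate numbers with the sarcomas. For sarcoma cells against stroma, edgeR called 171 genes with the library block and 38 with no replicate block, and for cycling against non-cycling cells 2596 and 389; neither changed the call of a member. Sarcoma cells against stroma gave 3218 calls with DESeq2, 567 with cells thinned to 2000 UMIs, 551 with stroma markers at 8 or more UMIs, 12 with cells meeting both rules kept, 1186 with stroma cells holding a Smarcb1 UMI (chosen after seeing the data), and 0 to 1567 leaving out 1 tumour, the most without sarcoma 4. Sarcoma cells against muscle cells gave 1949 calls with DESeq2, and whole libraries 1163. Stroma against muscle gave 561 with DESeq2, 17 with thinned cells, 61 with the Smarcb1 limit, and 0 to 176 leaving out 1 tumour. Cycling cells gave 1300 calls with thinned cells, 1408 with cycling at 1 or more UMIs, and 1035 to 2351 leaving out 1 tumour (1038 without sarcoma 1 and 1035 without sarcoma 2). Of 319 values of member fold changes under the alternatives, 297 kept direction and call, 10 newly passed (Hmga1 and Hmga2 only) and 12 changed sign. In cycling cells these were Hmga2 at −0.032 with cycling at 1 or more UMIs and from −0.15 to 0.15 leaving out 1 tumour (negative without sarcoma 3), Igf2bp2 at −0.00148 with no filter on low counts, −0.18 with thinned cells, −0.037 with cycling at 1 or more and from −0.017 (without sarcoma 3) to 0.054 leaving out 1 tumour, and Igf2bp3 at 0.034 with cycling at 1 or more. Against stroma, Igf2bp3 moved to 0.029 with no filter, 0.23 with markers at 8 or more, 0.062 with no replicate block, and ran from −0.14 to 0.27 leaving out 1 tumour (highest without sarcoma 3). Plag1 in stroma against muscle moved to 0.12 with cells meeting both rules kept. The cause was not tested. Thinned to 5000 UMIs, Hmga2 shares rose to 88.2%, 64.5%, 43.6% and 0.718% of sarcoma cells in sarcomas 1 to 4, to 0.571% in muscle, and to 15.9% and 2.38% in stroma of sarcomas 1 and 3, since deeper cells hold more UMIs. The order of levels over muscle and the 4 tumours was the same with all deposited barcodes for 8 of 8 members. Stroma sums rest on 79 to 1732 cells, which limits low levels there: 3 counts in stroma of sarcoma 4 are 1.04 CPM.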
